A study of Mus musculus with 18 samples.

Results

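The comparison described here sets muscle-specific Zfp697 knockout (mKO) mice against flox/flox mice in gastrocnemius muscle that had not yet been reloaded, pooled over both conditions before reloading. Libraries were chosen by their labels alone: of the 18 RNA-seq libraries of the study, 12 entered the fit, 6 mKO and 6 flox/flox. The groups were mKO after 10 days of hindlimb unloading, flox/flox after 10 days of hindlimb unloading, mKO control and flox/flox control, with 3 libraries in each. Control mice stayed in conventional cages and were neither unloaded nor reloaded. The remaining 6 libraries, 3 mKO and 3 flox/flox taken at 3 days of reloading, were kept out of the fit and serve below as separate samples.

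All mice were female C57BL/6, and ages are not given in the sources used here. Both genotypes carry the floxed Zfp697 gene, and the flox/flox animals are called wild-type in the study's design text. The labels name the knockout as conditional and restricted to skeletal muscle, but the Cre driver, the time of deletion and the deleted exons are not given in the sources used here. Because whole muscle was sequenced, other cells of the tissue keep the gene under such a design, and fewer cells of a type cannot be told apart from less RNA per cell. The labels number the libraries of a group without saying that each is a separate animal, so each p-value reflects library-to-library spread, which may be technical. Library totals ran between 45185079 and 51592566 counts assigned to genes, and between 22341 and 23314 genes had a count.

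Zfp697 encodes a zinc finger protein, which the study describes as an RNA-binding protein acting on muscle inflammation and remodelling. Hindlimb unloading takes the weight off the leg muscles, which then lose mass through protein breakdown by the ubiquitin ligases Trim63 and Fbxo32 and through lower matrix and protein synthesis. Reloading brings back the weight and draws macrophages and dividing cells into the damaged tissue. The pooled comparison asks what the knockout does to muscle RNA while that repair response is not under way.

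No gene passed the test for genotype before reloading. With a quasi-likelihood F test in edgeR and condition as a covariate, 0 of 17224 genes (0%) had a Benjamini-Hochberg adjusted p under 0.05. The smallest adjusted p was 0.642, and 801 genes (4.65%) had an unadjusted p under 0.05, of which 389 (2.26%) were higher and 412 (2.39%) lower in mKO. A test with limma's voom and library quality weights also called 0 genes, with 961 at an unadjusted p under 0.05, whereas DESeq2 called 4, with 820. The median log2 fold change was 0.00 and the median absolute log2 fold change 0.07.

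The same 12 libraries gave many calls for condition. Unloading against control, read from the same fit, differed in 3457 genes (20.1%), 1684 higher and 1773 (10.3%) lower after unloading, and 5732 (33.3%) had an unadjusted p under 0.05. Of those, 579 had a smaller p than the best gene of the genotype comparison. Col1a2, a chain of type I collagen, fell by 1.82 ± 0.17 (SE) on the log2 scale after unloading (edgeR adjusted p = 1.155e-05). Its genotype difference in the same libraries was 0.00 ± 0.17, with 102, 208 and 181 CPM (library-size-normalised counts) in mKO unloading, 172, 168 and 237 CPM in flox unloading, 581, 661 and 786 CPM in mKO control and 484, 746 and 501 CPM in flox control. Both genotypes were low after unloading and high in control muscle, with overlapping ranges of genotypes in each condition.

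**Figure D1:**
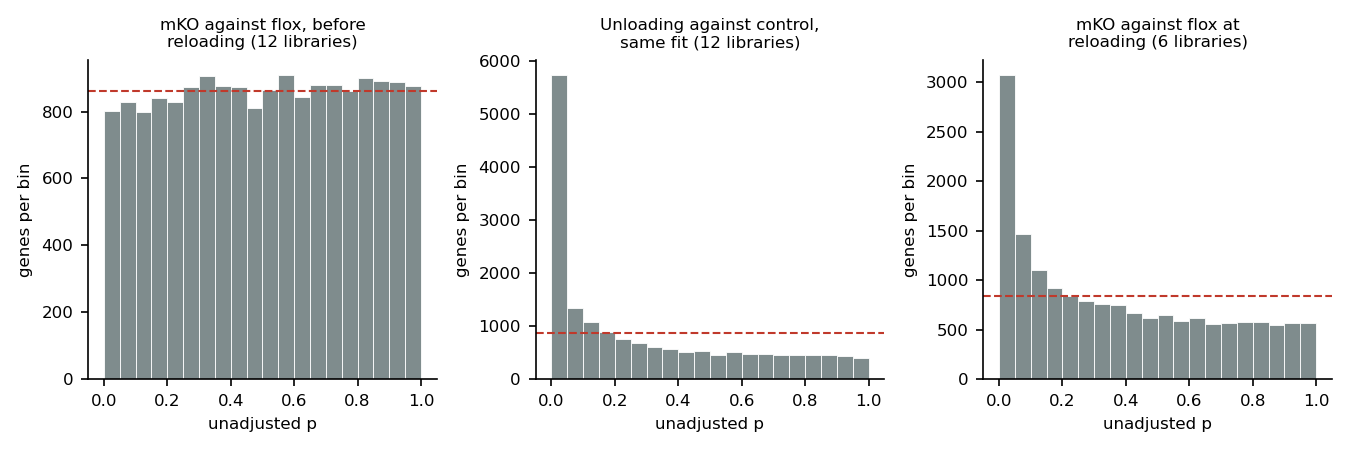
Histograms of unadjusted p-values in bins of 0.05, with the number of genes per bin on each vertical axis, for mKO against flox before reloading, unloading against control in the same fit, and mKO against flox at reloading. The dashed line is the mean height of the bins; the first bin holds 801 genes for genotype before reloading, 5732 for condition and 3071 for genotype at reloading.

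The share of variance gave the same picture in numbers. Across the tested genes, genotype took 7.41% of the variance between the 12 libraries on 1 degree of freedom, condition 23.2%, and the genotype by condition term 7.48%. Libraries within groups took 61.9%, which is 7.74% per degree of freedom, slightly above the share of genotype. The first principal component, 23.7% of the variance, separated unloading from control libraries. The second, 10.95%, had mKO unloading 2 at -27.9 and flox unloading 3 at -30.1 furthest out. On the same side lay mKO control 2 at -17.7, and the next library, flox control 3, was at -2.10. Without mKO unloading 2 and flox unloading 3, 0 genes were called for genotype, with 878 at an unadjusted p under 0.05. Leaving out mKO control 2 alone also gave 0, with 937.

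How large a difference could have been present is given by the 95% interval of each gene. For 12494 of the 17223 genes with an interval (72.5%), the whole interval lay within a 1.5-fold difference in either direction, and for 15226 (88.4%) within 2-fold. Among the 7811 genes averaging at least 10 CPM, 98.3% lay within 1.5-fold and 99.7% within 2-fold, with a median half-width of 0.14 log2 units. Among the 5235 genes between 1 and 10 CPM, 84.9% lay within 1.5-fold and 98.6% within 2-fold. Below 1 CPM, where 4178 genes were tested, 8.86% lay within 1.5-fold and 54.6% within 2-fold, so differences beyond 2-fold were not excluded for many genes there, and the median half-width was 0.70 log2 units.

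The targeted gene, Zfp697, had overlapping levels in both genotypes. It is ENSMUSG00000050064 on the plus strand of chromosome 3 at 98382461 to 98753812 (GRCm38), and gave 113, 48 and 66 counts in mKO unloading, 77, 84 and 79 in flox unloading, 49, 65 and 59 in mKO control and 47, 45 and 71 in flox control. That corresponds to 1.41 ± 0.52 CPM in mKO and 1.40 ± 0.33 CPM in flox (SD, n = 6 each, both conditions together). The log2 fold change was 0.01 ± 0.20 (SE), with a 95% interval of -0.41 to 0.43 and an edgeR adjusted p of 0.999. The ranges overlapped in both conditions, and the single highest library was mKO unloading 1.

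The level of Zfp697 therefore gives no check of the genotype labels before reloading. These are counts over the whole gene, so a transcript that has lost only the deleted exons still counts, as does RNA from cells outside the muscle fibre. At reloading the log2 fold change of Zfp697 was -0.61 ± 0.19 (edgeR adjusted p = 0.14). In 22 alternative analyses of the pooled comparison its value ran between -0.17 and 0.12, and its sign differed from the value above in 7. The annotated span also covers 13 genes on the opposite strand, steroid dehydrogenases of the Hsd3b family and gene models. None of these passed the filter on low counts.

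Of the 10 genes nearest to a call, each averaging at least 1 CPM in 1 genotype, 9 are given next as candidates and not as changed genes. Ccdc50, a coiled-coil protein that binds ubiquitin (chromosome 16, 27388869 to 27452218), had 301, 332 and 282 CPM in mKO unloading and 251, 210 and 249 CPM in flox unloading. In control muscle it had 229, 275 and 287 CPM in mKO and 169, 186 and 208 CPM in flox. The mKO libraries lay above the flox libraries in each condition, with a log2 fold change of 0.43 ± 0.07 (SE, 95% interval 0.27 to 0.59, edgeR adjusted p = 0.642).

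Pik3r1, the regulatory subunit of phosphoinositide 3-kinase in insulin signalling (chromosome 13, 101680563 to 101768217), lay the other way. It had 95.9, 81.1 and 108 CPM in mKO unloading, 121, 122 and 170 CPM in flox unloading, 52.3, 68.2 and 59.3 CPM in mKO control and 72.0, 84.6 and 84.2 CPM in flox control. All mKO libraries were below the flox libraries of their condition, with a log2 fold change of -0.48 ± 0.10 (edgeR adjusted p = 0.812). After unloading the gene rose by 0.72 ± 0.10 on the log2 scale (edgeR adjusted p = 0.000183). Nudt18, a Nudix hydrolase that clears oxidised nucleotides (chromosome 14, 70577637 to 70582688), had 9.64, 8.97 and 11.96 CPM in mKO unloading and 15.6, 13.8 and 11.5 CPM in flox unloading. Control values were 9.96, 10.0 and 8.44 CPM in mKO and 12.6, 15.9 and 12.7 CPM in flox. The ranges of Nudt18 were apart in control and overlapped after unloading, and its log2 fold change was also -0.48 ± 0.10.

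Ccdc50, Pik3r1 and Nudt18 are among the 4 genes that DESeq2 called, with adjusted p-values of 0.000695 for Ccdc50, 0.0119 for Pik3r1 and 0.0125 for Nudt18 and fold changes that differ from those of edgeR by less than 0.01 on the log2 scale. EdgeR without a filter on low counts also called these 3 genes, at adjusted p-values of 3.74e-06, 5.22e-07 and 0.00049 in the same order. That fit called 76 genes, with median prior degrees of freedom of 162, against 6.26 with the filter. The median gene it called had a mean of 792 counts. Angptl7 and Mcf2l, described below, were also called in at least 1 of the 22 alternatives. The calls of Ccdc50, Pik3r1 and Nudt18 therefore rest on the choice of test and filter. In the separate reloading libraries their log2 fold changes were 0.02 for Ccdc50, 0.03 for Pik3r1 and 0.03 for Nudt18, with edgeR adjusted p-values of 0.94, 0.91 and 0.93.

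The widest difference among the 9 was that of Angptl7, a secreted angiopoietin-like protein found in tendon (chromosome 4, 148495183 to 148500460). It had 39.8, 36.4 and 40.5 CPM in mKO unloading, 65.3, 59.2 and 59.3 CPM in flox unloading, 34.9, 74.7 and 45.2 CPM in mKO control and 69.5, 146 and 95.2 CPM in flox control. The genotypes were apart after unloading and overlapped in control, where mKO control 2 reached the flox range. Its log2 fold change was -0.83 ± 0.18 (95% interval -1.21 to -0.45, edgeR adjusted p = 0.964). Angptl7 is 1 of the 12 tendon markers of the lists below, and the other markers summed to 301, 436 and 369 CPM in mKO unloading, 461, 399.7 and 485 CPM in flox unloading, 585, 619 and 823 CPM in mKO control and 524, 929.7 and 684 CPM in flox control. These sums overlapped in both conditions. The part of tendon content in the Angptl7 values was not tested.

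Nnmt, which methylates nicotinamide, ranged between 2.94 and 3.92 CPM in mKO with a median of 3.30, and between 2.17 and 2.78 CPM in flox with a median of 2.34. It was the only one of the 9 whose 6 mKO libraries all lay above all 6 flox libraries. Its log2 fold change was 0.48 ± 0.11 before reloading (edgeR adjusted p = 0.999) and -0.72 ± 0.27 at reloading (edgeR adjusted p = 0.21), so it was called in neither. The difference between those, -1.21 ± 0.26, had an edgeR adjusted p of 0.0373. Nnmt was picked for its small p before reloading, and the difference uses those libraries again, so part of it comes from that choice. Without flox reloading 2 no gene was called for that difference, Nnmt included. The remaining candidates had smaller differences or lower levels. Mcf2l, a guanine nucleotide exchange factor, had a log2 fold change of -0.36 ± 0.08, and Gpnmb, a glycoprotein of lysosomes and macrophages, of -0.38 ± 0.09. Tnik, a kinase that binds TRAF2 and NCK, had 0.24 ± 0.05, and Homer1, a scaffold protein of synapses and of the muscle triad, 0.22 ± 0.05. Tnik was apart in both conditions, whereas the ranges of Mcf2l, Homer1 and Gpnmb overlapped in at least 1 of the conditions.

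**Figure D2:**
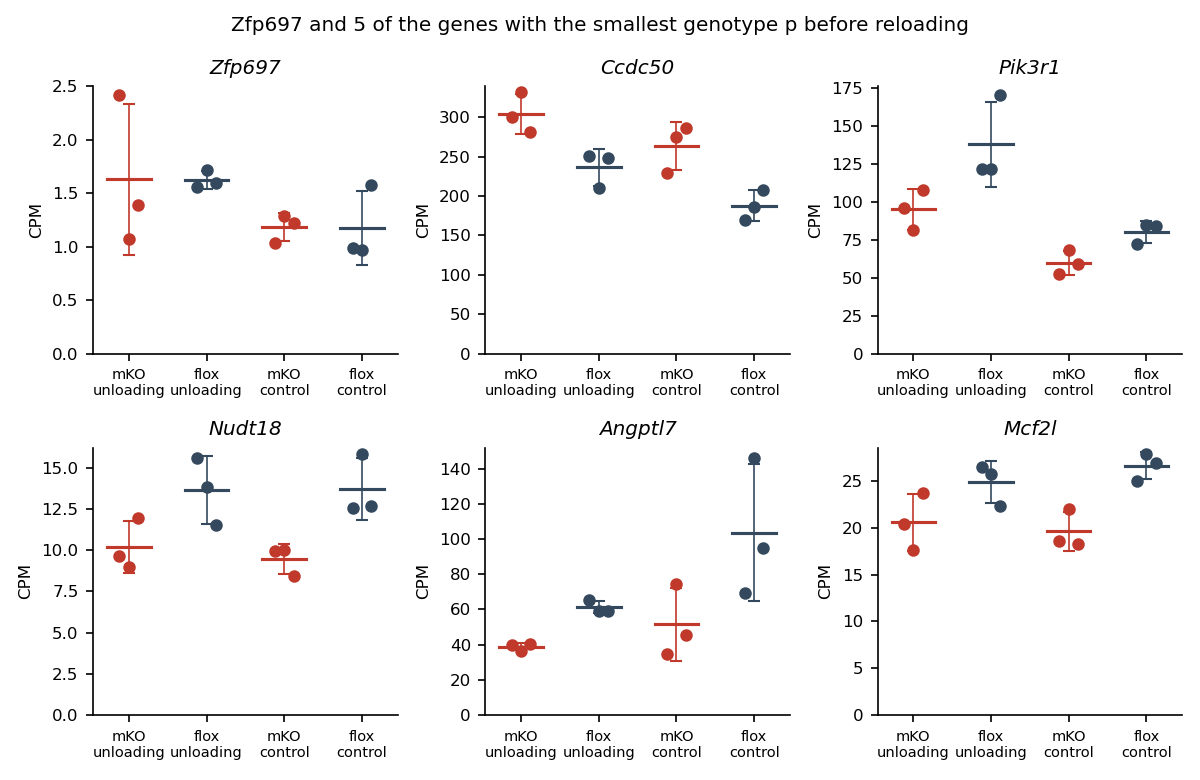
Expression in CPM on linear vertical axes that start at 0, for Zfp697 and 5 of the genes with the smallest genotype p, in mKO unloading, flox unloading, mKO control and flox control libraries. Points are libraries, thick lines means and bars SD (n = 3 per group); Ccdc50 and Pik3r1 are apart in both conditions, and Zfp697 overlaps in both.

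Ranges that did not overlap were few. With 3 libraries per group some ranges lie apart by chance, and the counts were not tested against chance. Ccdc50, Pik3r1, Tnik and Nnmt, described above as apart, had already been picked for their small p in these libraries. In 94 genes (0.546%) the 3 mKO libraries lay apart from the 3 flox libraries in the same direction in both conditions, 54 with mKO higher and 40 with mKO lower. In 26 genes (0.151%) all 6 libraries of one genotype lay above all 6 of the other, 13 in each direction. Besides Nnmt these included Lrp4, the agrin co-receptor of the neuromuscular junction, at -0.16 ± 0.06, and Pdgfrb, the platelet-derived growth factor receptor of pericytes, at -0.14 ± 0.06 (edgeR adjusted p = 0.999 for both), which were picked after their values were seen.

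Taken condition by condition, no gene passed the test either. After unloading 0 of 17224 genes (0%) were called, with 773 (4.49%) at an unadjusted p under 0.05, and in control muscle 0 (0%), with 709 (4.12%). Voom called 0 genes in each, with 776 after unloading and 1037 in control. DESeq2 called 3 genes after unloading and 6 in control, with 752 and 679 at an unadjusted p under 0.05. No gene was called for a genotype effect that differs between unloading and control: the interaction gave 0 calls (0%) by edgeR with 716 genes (4.16%) at an unadjusted p under 0.05, and 0 calls by voom and DESeq2, with 854 and 688. Without mKO unloading 3, Enah, an actin regulator, was called for the interaction (1.18 ± 0.14, edgeR adjusted p = 0.028) and after unloading (1.12 ± 0.11, adjusted p = 0.00155), and without flox unloading 3, 1 gene was called after unloading.

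Trim63, the muscle ubiquitin ligase MuRF1, had the smallest p of the genes considered after unloading. It had 302, 281 and 271 CPM in mKO unloading and 224, 221 and 228 CPM in flox unloading, against 226, 218 and 215 CPM in mKO control and 207, 200 and 210 CPM in flox control. The mKO libraries were above the flox libraries in both conditions, more widely after unloading. The log2 fold change was 0.34 ± 0.07 after unloading (edgeR adjusted p = 0.9995, DESeq2 adjusted p = 0.00121) and 0.10 in control, and the interaction of 0.25 ± 0.09 had an adjusted p of 0.9999. Fbxo32, the ligase atrogin-1, had 314, 291 and 288 CPM in mKO unloading and 211, 307 and 175 CPM in flox unloading. In control muscle it had 197, 300 and 365 CPM in mKO and 302, 355 and 404 CPM in flox. The ranges overlapped in both conditions. The log2 fold change was 0.37 ± 0.21 after unloading and -0.30 ± 0.21 in control, and the pooled value of 0.03 ± 0.17 averages these opposite signs. The interaction of 0.67 ± 0.29 had an edgeR adjusted p of 0.9999.

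The transcripts that followed Trim63 after unloading have no gene name, Gm16185 at 0.92 ± 0.19 and ENSMUSG00000109836 at 0.88 ± 0.19 (edgeR adjusted p = 0.9995 for both). In control muscle the leading genes were Xpr1, a phosphate exporter, Meg3, an imprinted long noncoding RNA, and Aff3, a nuclear protein of the AF4 family. Xpr1 had 166, 164 and 150 CPM in mKO control and 116, 104 and 127 CPM in flox control, with ranges apart, and its log2 fold change was 0.46 ± 0.09. After unloading its ranges overlapped, at 154, 171 and 142 CPM in mKO and 161, 165 and 148 CPM in flox. Meg3 had a log2 fold change of 0.64 ± 0.14 and Aff3 of -0.90 ± 0.19 in control (edgeR adjusted p = 0.964 for the 3 genes). In the authors' deposited table for control muscle, Aff3 and Rnf114 had the smallest adjusted p, 0.073, followed by Ccdc50 at 0.14, and 0 of 30881 genes were under 0.05, with 824 at an unadjusted p under 0.05.

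For the interaction the leading genes were Sh2d6, an SH2 domain adaptor, at -1.30 ± 0.24, the unnamed transcript B230206H07Rik at -1.61 ± 0.32, and Stum, at 1.33 ± 0.28 (edgeR adjusted p = 0.9999 for each). Sh2d6 had 1.61, 1.54 and 1.75 CPM in mKO unloading and 2.77, 2.27 and 2.06 CPM in flox unloading, against 2.96, 2.76 and 2.51 CPM in mKO control and 1.57, 1.68 and 1.58 CPM in flox control. The genotypes were apart in opposite directions in the 2 conditions, and pooled they gave 0.12 ± 0.20.

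Gene lists for muscle programmes and cell types, 35 in all, were read against the background of 0% called. Each list had 0 called members. Nuclear genes of energy metabolism were tightly bounded, as were abundant genes in general: 98.3% of all tested genes averaging at least 10 CPM lay within 1.5-fold. All 40 nuclear genes of oxidative phosphorylation had intervals within 1.5-fold, with a median log2 fold change of 0.02 and a range of -0.06 to 0.09, and 24 of 25 genes of fatty acid use and 23 of 24 of glycolysis did as well. The 13 mitochondrially encoded genes were less so, with 8 within 1.5-fold, a range of -0.72 to 0.42 and 1, mt-Atp8, lower at an unadjusted p under 0.05. Atp5b, the catalytic subunit of ATP synthase, ranged between 2364 and 2844 CPM in mKO with a median of 2634, and between 2289 and 2928 CPM in flox with a median of 2656. The exception in glycolysis was Pfkfb3, a regulator of its rate, at 0.85 ± 0.26 (unadjusted p = 0.00485, adjusted p = 0.999 in edgeR).

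Contractile genes were more tightly bounded in the fast programme than in the slow one. Of 14 fast fibre genes, 13 lay within 1.5-fold, with a median of 0.09. Myh4, the fast IIb myosin heavy chain, ranged between 43040 and 54070 CPM in mKO with a median of 51230, and between 44330 and 53370 CPM in flox with a median of 47610. Of the 12 slow fibre genes 10 had a positive log2 fold change, with a median of 0.24, but none had an unadjusted p under 0.05 and only 4 intervals lay within 1.5-fold. Their summed level was 2234, 2508 and 2126 CPM in mKO unloading, 1122, 2271 and 2691 CPM in flox unloading, 2346, 2333 and 2796 CPM in mKO control and 2487, 2949 and 2073 CPM in flox control. Flox unloading 1 stood low, and without that library the median was 0.13.

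Atrophy, matrix and stress programmes had pooled medians near 0, in some lists with opposite signs in the conditions. The 24 atrophy and FoxO target genes had a median of 0.00, with 23 within 1.5-fold, 2 at an unadjusted p under 0.05 (Trim63 and Fbxo30) and none lower at that level. The 30 tested extracellular matrix genes had a median of 0.06, with 25 within 1.5-fold and 30 within 2-fold, and the median was -0.10 after unloading and 0.17 in control. Among 17 glucocorticoid response genes the median was -0.09, 8 lay within 1.5-fold, and the 2 at an unadjusted p under 0.05, Pik3r1 and Glul, were both lower in mKO. Glul, glutamine synthetase, ranged between 198 and 445 CPM in mKO with a median of 302, and between 195 and 588 CPM in flox with a median of 424, so the ranges overlapped (-0.44 ± 0.18, edgeR adjusted p = 0.999). Heat shock genes had a median of 0.07, the unfolded protein and integrated stress response 0.00, clock genes 0.05, immediate early genes 0.09, sarcomere strain and repair -0.04, myogenic regulators -0.03, neuromuscular junction and denervation -0.02, RNA-binding regulators of cytokine mRNA -0.01 and mitochondrially encoded genes 0.04. The median of the immediate early genes was 0.28 after unloading and -0.14 in control, and that of the heat shock genes 0.13 after unloading and -0.07 in control.

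Many inflammatory genes were scarce before reloading, which limits what the lists can show. Of 32 listed cytokine, chemokine and NF-kB genes 24 were tested and 13 had intervals within 1.5-fold, with a median of 0.06. Il1b, the cytokine interleukin-1 beta, had the widest value in this list, 1.64 ± 0.64 at a mean of 0.133 CPM (unadjusted p = 0.0207, edgeR adjusted p = 0.999), and was picked after its values were seen. The 31 tested interferon response genes had a median of -0.03 with 24 within 1.5-fold, and the 16 genes of MHC class I and II presentation 0.03 with 15 within 1.5-fold. The interferon response median was -0.12 after unloading and 0.13 in control. Among 30 tested cell cycle genes the median was 0.01, with 10 within 1.5-fold and 22 within 2-fold. That median pools conditions that lay on opposite sides of 0, at -0.19 after unloading and 0.33 in control.

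**Figure D3:**
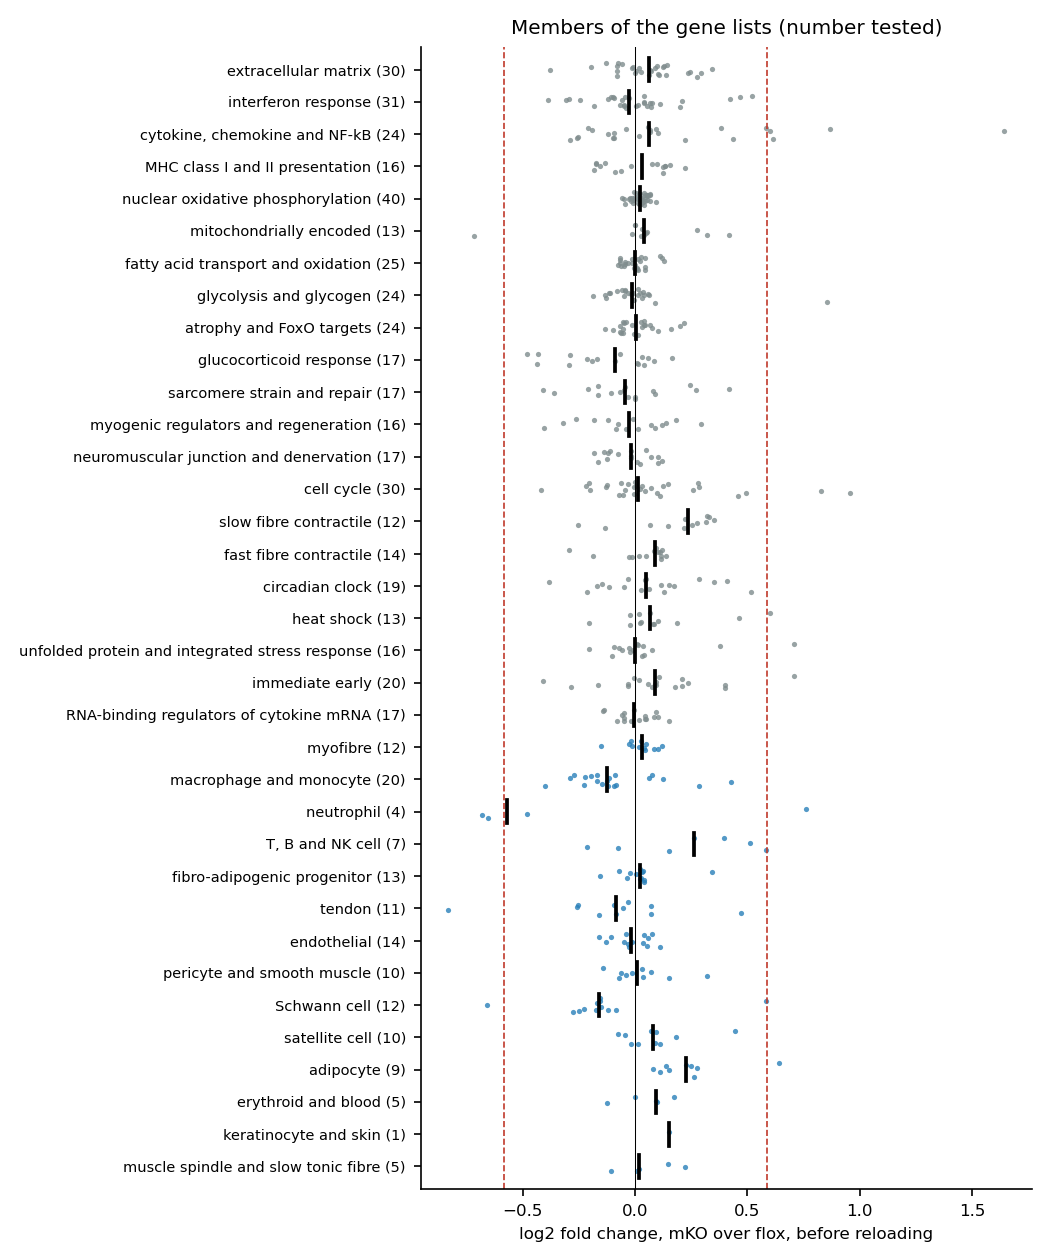
Log2 fold change of mKO over flox before reloading (horizontal axis) for each tested member of 35 gene lists, 21 programmes in grey and 14 marker lists in blue, with the number tested in brackets. Black bars are list medians and dashed lines mark 1.5-fold; most members lie between the dashed lines, and the neutrophil list rests on 4 genes.

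The labelled tissue carried its markers. The 12 myofibre markers summed to between 156900 and 197700 CPM in mKO and between 161400 and 187600 CPM in flox, and keratinocyte and skin markers to at most 2.54 CPM, with 2 of their genes at 0. Macrophage and monocyte markers, 20 genes with a median of -0.12, summed to 185, 176 and 134 CPM in mKO unloading, 202, 182 and 215 CPM in flox unloading, 161, 222 and 243 CPM in mKO control and 193, 201 and 213 CPM in flox control. The ranges overlapped in both conditions, and of the 20 genes 1, the complement subunit gene C1qa, had an unadjusted p under 0.05 (-0.29 ± 0.12). The median of the list was -0.29 after unloading and 0.05 in control. Lyz2, the lysozyme of myeloid cells, ranged between 35.6 and 65.5 CPM in mKO with a median of 53.8, and between 51.0 and 69.8 CPM in flox with a median of 55.8.

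Neutrophil markers were near the floor, with 4 of 12 genes tested, a median of -0.57 and 0 intervals within 2-fold. Their sum was 1.44, 4.43 and 1.66 CPM in mKO unloading, 1.17, 0.939 and 12.03 CPM in flox unloading, 0.634, 1.33 and 1.58 CPM in mKO control and 1.53, 0.71 and 1.02 CPM in flox control. The highest sums belonged to mKO unloading 2 and flox unloading 3, the libraries furthest out on the second principal component. Without flox unloading 3 the median over the markers still tested was 1.03. Schwann cell markers had a median of -0.16 and 11 of 12 below 0, with medians of -0.44 after unloading and 0.14 in control. Their sums were 198, 383 and 311 CPM in mKO unloading and 428, 404 and 419 CPM in flox unloading. Those sums were apart after unloading and overlapped in control, at 295, 369 and 312 CPM in mKO and 371, 218 and 275 CPM in flox. Such separation was not particular to Schwann cell markers. After unloading the sums of immediate early genes were 441.6 to 517.4 CPM in mKO and 300.2 to 432.1 CPM in flox. RNA-binding regulators of cytokine mRNA and the unfolded protein and integrated stress response were also apart after unloading. In control the sums of interferon response and clock genes were apart, with mKO higher. Adipocyte markers had a median of 0.22 with 9 of 9 above 0, and medians of 0.29 after unloading and 0.10 in control. Their sums overlapped, between 153 and 354 CPM in mKO and between 170 and 250 CPM in flox. The 354 CPM came from mKO unloading 2, and the other mKO libraries reached at most 242 CPM. The other marker medians were 0.26 for T, B and NK cells (7 genes), 0.02 for fibro-adipogenic progenitors, -0.09 for tendon, -0.02 for endothelium, 0.01 for pericytes and smooth muscle, 0.08 for satellite cells, 0.09 for erythroid cells, 0.03 for myofibres, 0.02 for the muscle spindle and 0.15 for skin (1 gene). Some of these pool opposite signs. Tendon had -0.30 after unloading and 0.07 in control, T, B and NK cells -0.05 and 0.58, and erythroid cells -0.17 and 0.34.

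**Figure D4:**
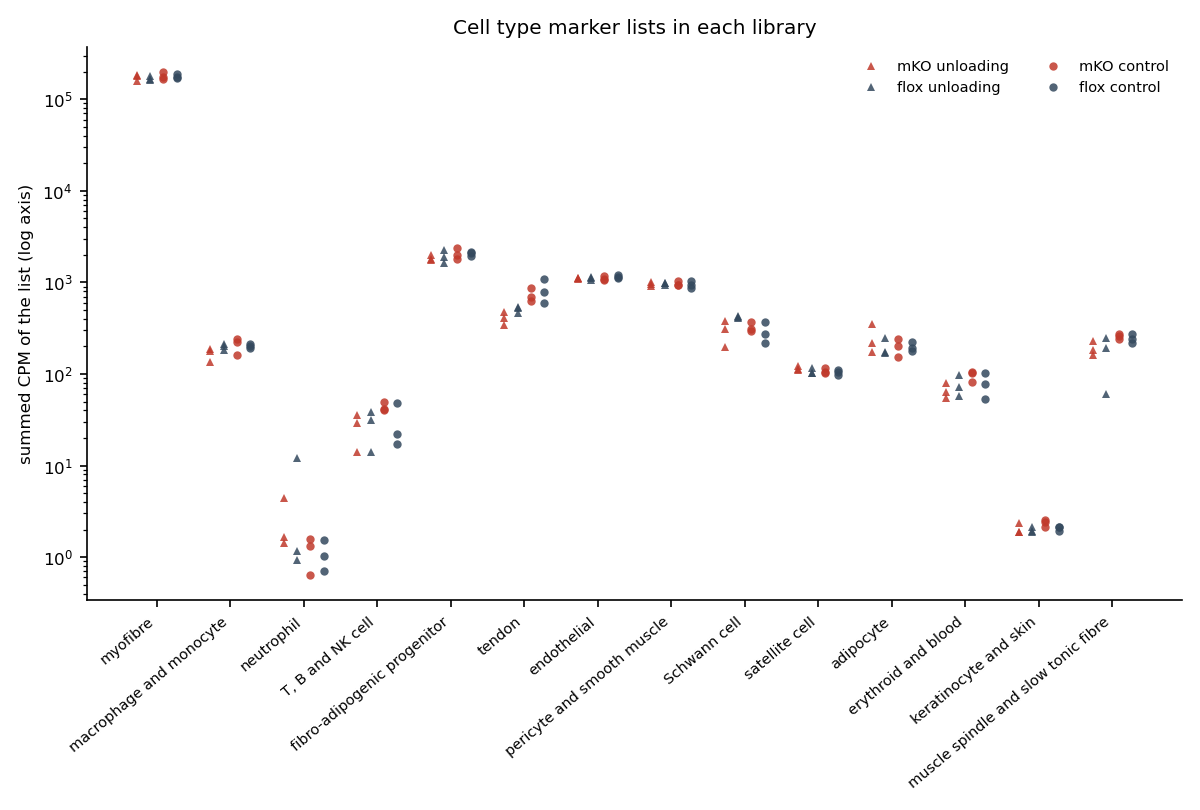
Summed CPM of the 14 marker lists (log vertical axis) in each of the 12 libraries, mKO in red and flox in dark grey, triangles for unloading and circles for control. The genotypes overlap in most lists; neutrophil sums of flox unloading 3 and mKO unloading 2 and the spindle sum of flox unloading 1 stand away from the others.

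The 6 reloading libraries share no sample with the pooled comparison. There, 443 of 16782 genes (2.64%) were called between genotypes by edgeR, 23 higher and 420 (2.5%) lower in mKO. That count moved widely with single libraries, to 26 without flox reloading 2, 50 without mKO reloading 3, 90 without mKO reloading 1, 177 without flox reloading 1 and 1243 without mKO reloading 2. The split by direction moved too, to 405 higher and 838 lower without mKO reloading 2, 194 and 837 by DESeq2, 250 and 996 without a filter on low counts, and 8 and 704 with total counts as library sizes. Of the 420 lower genes 393 were tested before reloading. Their median log2 fold change was -1.06 at reloading and -0.04 before, where 231 were below 0 and 162 above, 0 were called, and 6 were lower and 5 higher at an unadjusted p under 0.05. For 243 of the 393 the interval before reloading lay within 1.5-fold, and the difference between reloading and before, tested as described next, was called in 136. The genes were chosen by their values at reloading, so part of the gap between the medians comes from that choice. The test of the difference uses the same reloading libraries again. The 23 higher genes had a median of 0.55 at reloading and -0.01 before, with 21 intervals within 1.5-fold and the difference called in 3. Ifi208, an interferon-inducible gene picked after its values were seen, had 0 counts in all mKO reloading libraries, so its fitted fold change there depends on the prior count; before reloading it averaged 0.132 CPM with a log2 fold change of -1.36 ± 0.77.

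The difference itself was tested in a fit of all 18 libraries, as the genotype effect at reloading minus its average over unloading and control. It was called in 178 of 17833 genes (0.998%), 165 of them (0.925%) more negative at reloading. Without flox reloading 2 this count was 0, without mKO reloading 2 it was 642, and it was 9 without mKO reloading 3. It was 12 without mKO reloading 1 and 49 without flox reloading 1. Leaving out single libraries from before reloading gave 90 and 71 without mKO unloading 1 and 2, 89 and 38 without flox unloading 1 and 2, 57 and 47 without mKO control 2 and 3, and 111, 77 and 75 without flox control 1, 2 and 3. The count was higher, at 217, 211, 208 and 216, without mKO unloading 3, mKO control 1, flox unloading 3 and flox reloading 3. Before reloading the count was 0 with each of the 12 libraries left out in turn, and the number at an unadjusted p under 0.05 then ran between 621 and 1061.

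By list, the cell cycle had the widest difference in median of the 35 lists. Over all tested genes, 2.5% were called lower in mKO at reloading. The difference was called more negative at reloading in 0.925%. At reloading 26 of 31 cell cycle genes were called lower in mKO, with a median of -1.51, against 0 of 30 and a median of 0.01 before, and the difference was called in 14 of 31. Macrophage and monocyte markers had 13 of 20 called lower at reloading with a median of -1.03, against 0 of 20 and -0.12 before, and the difference was called in 6 of 20. Extracellular matrix genes had 11 of 30 called lower at reloading with a median of -0.55, against 0 of 30 and 0.06 before, and the difference was called in 5 of 30. Each of these medians before reloading pools 2 conditions of opposite sign. The cell cycle had -0.19 after unloading and 0.33 in control. Macrophage and monocyte markers had -0.29 after unloading and 0.05 in control, and matrix genes -0.10 and 0.17. Mrc1, the mannose receptor of tissue macrophages, had a log2 fold change of -0.79 ± 0.14 at reloading (edgeR adjusted p = 0.0217) and 0.08 ± 0.09 before, and the difference of -0.88 ± 0.17 had an adjusted p of 0.0287. For Lyz2 the values were -1.03 ± 0.16 at reloading (edgeR adjusted p = 0.0161) and -0.13 ± 0.12 before, with an adjusted p of 0.0536 for the difference. These calls of the difference are also lost without flox reloading 2. The list counts at reloading rest on single libraries too. Over all tested genes, 25 were called lower at reloading without flox reloading 2, so the 26 cell cycle calls cannot all hold there. That number was 48 without mKO reloading 3 and 838 without mKO reloading 2.

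**Figure D5:**
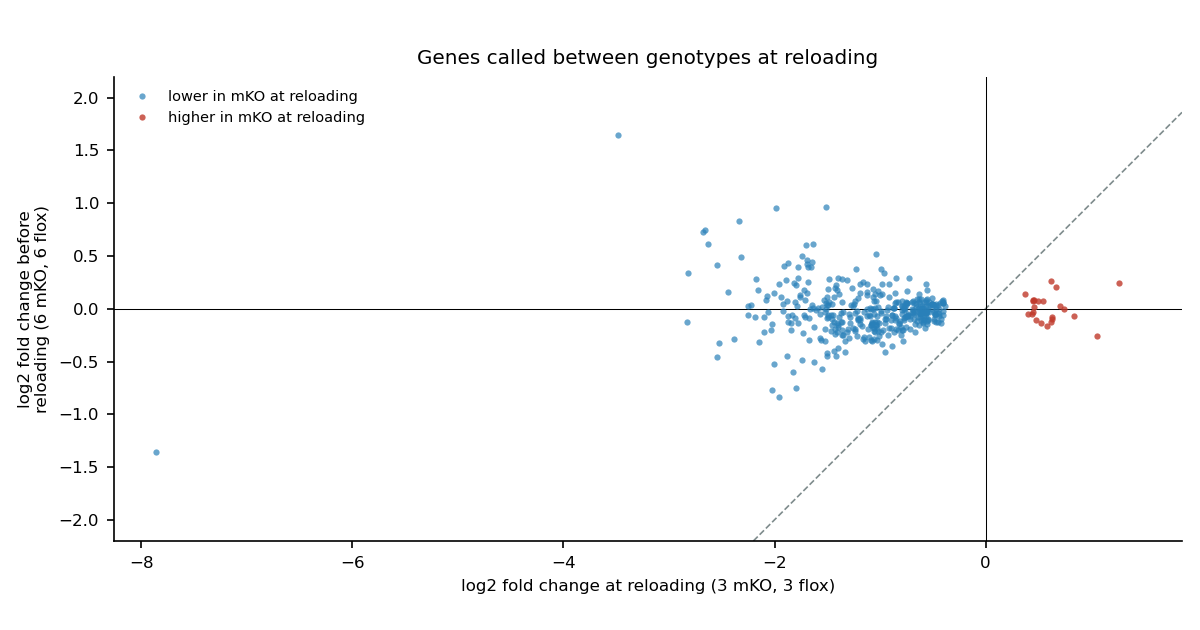
Log2 fold change of mKO over flox before reloading (vertical, 6 mKO and 6 flox libraries) against that at reloading (horizontal, 3 mKO and 3 flox libraries), for the genes called at reloading that were also tested before: 393 lower (blue) and 23 higher (red). The dashed line marks equal values and the point at the far left is Ifi208; the points scatter on both sides of the horizontal line at 0, with medians of -1.06 at reloading and -0.04 before for the lower genes.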

How the data were processed

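Poly(A) RNA was extracted with Trizol from gastrocnemius and made into Illumina TruSeq Stranded mRNA libraries, per the labels' protocols. The deposited table holds raw counts per gene made with featureCounts 1.6.4 and Ensembl release 94, per the file headers; the submitters' processing notes name STAR 2.7.3a, featureCounts 2.0.3 and GRCm38.p6. Deposited p-values come from the authors' own comparison of control muscle. Of 54532 genes, 30674 had a count in the 12 libraries and 17224 passed edgeR's filterByExpr. Counts were scaled by TMM and fitted in edgeR 4.0.16 (R 4.3.3) with condition and genotype as terms, and adjusted by Benjamini-Hochberg over all genes tested. Intervals are 95% intervals from the same fit, and CPM use TMM library sizes. Effects within conditions and the interaction came from 4 group means, and reloading libraries were fitted on their own. Alternatives used limma 3.58.1 and DESeq2 1.42.0, and the procedure was tested on simulated data. Apart from Zfp697, the text names the 10 genes of smallest p at a mean of at least 1 CPM, the 3 smallest in each condition and the interaction, and the 2 most abundant members of lists, with exceptions said. The members and lists were chosen with earlier results of these data known. The condition effect and the difference between reloading and before were added after seeing the data. So was the fit without the 2 libraries furthest out on the second principal component. Some named-gene results are not reported here.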

Additional observations from a re-analysis of the deposited data

Results flagged for a closer look

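Libraries far from the other 5 of their genotype were looked for in 240 groups of 6 libraries, pooling both conditions, with Dixon's test; 16 were found, and chance gives about 1 in 20. Since unloading and control libraries are pooled in such a group, a shift with condition widens the range of the 6 libraries and can hide a single outlier.

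Zfp697 had 2.42 CPM in mKO unloading 1, against 1.04 to 1.39 CPM in the other mKO libraries. Angptl7 had 74.7 CPM in mKO control 2, against 34.9 to 45.2 CPM, and Homer1 106.8 CPM in the same library, against 117.5 to 124 CPM. Myh8, the perinatal myosin heavy chain, had 196.5 CPM in mKO control 2, against 43.4 to 74.9 CPM, and 153.3 CPM in flox unloading 1, against 48.4 to 62.4 CPM in the other flox libraries. ENSMUSG00000109836 had 8.34 CPM in mKO unloading 2, against 10.8 to 11.9 CPM.

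In flox unloading 3, S100a9 of neutrophils had 3.69 CPM, against 0.0816 to 0.335 CPM, the neutrophil markers summed to 12.03 CPM, against 0.71 to 1.53 CPM, Lyz2 had 69.8 CPM, against 51.0 to 57.3 CPM, and the class I gene H2-D1 had 73.4 CPM, against 94.0 to 104 CPM. S100a9 was also high in mKO unloading 2, at 1.30 CPM, against 0.127 to 0.295 CPM in the other mKO libraries. In flox unloading 1, Myl2 had 50.4 CPM, against 180 to 257 CPM, the slow fibre genes summed to 1122 CPM, against 2073 to 2949 CPM, and the spindle markers to 60.28 CPM, against 193.5 to 272.5 CPM. In flox control 3, Aldoa had 11600 CPM, against 13100 to 13950 CPM, and Cd3e 0.266 CPM, against 0.71 to 0.983 CPM.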

How the results depend on the processing

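The count of 0 genes for genotype before reloading held under RLE factors, total counts, a filter of 1 CPM in 3 libraries, voom, 4 group means and all 18 libraries; DESeq2 gave 4 and no filter 76. Without a filter 30674 genes entered, and edgeR's median prior degrees of freedom were 162, against 6.26. DESeq2 gave 6 calls in control and 3 after unloading, and no filter 156 and 143, with 132 for the interaction. Leaving out each library in turn gave 0 pooled calls each time, 0 to 1 for the interaction and after unloading (Enah among them) and 0 in control. For reloading the range was 26 to 1243, with 712 for total counts, 1246 without a filter, 1031 by DESeq2 and 814 by voom. For reloading against before it was 0 to 642, with 412, 899, 562 and 506.

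Same-numbered libraries did not deviate together (correlations of -0.06 to 0.11, median 0.02, 18 pairs), so the numbers were not taken as pairs. With the replicate block the pooled, within-condition and interaction counts were 0, the reloading count 429, reloading against before 233 and condition 3425. The 9 leading genes described kept their sign in 22 alternatives. Of 87 named genes 56 kept theirs, and of 35 list medians 13. Lists with no gene left under the stricter filter have no value there. Below 1 CPM most intervals reach past 1.5-fold and many past 2-fold.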
